A study of Mus musculus with 10 samples.

Results

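The genes described here are those that gene ontology places under rRNA processing: the rows of the count table whose biological process annotation holds that term, without rows whose symbol starts with Rpl, Rps or Mrp. The term stood on 456 of the 56691 rows, 46 of them were left out by their symbol, and 410 members remained. Of these, 92 are protein-coding in GENCODE M21. The other 318 are not, 317 of them being pseudogenes there, and 258 of the 318 carry the annotation "structural constituent of ribosome", so that leaving out Rpl and Rps symbols did not remove pseudogene copies of ribosomal proteins under other names. The label therefore describes the 92 protein-coding members, which are the subject of what follows, and the remaining rows are accounted for in a paragraph of their own.

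Ribosomes begin in the nucleolus, where RNA polymerase I transcribes one long precursor that carries the 18S, 5.8S and 28S rRNAs with spacers between and around them. The small subunit (SSU) processome, a large assembly built around the U3 snoRNP, folds and cleaves the part that becomes the 40S subunit. Other factors, among them DEAD-box helicases, build the 60S subunit. Small nucleolar RNPs guide the methylation (box C/D) or pseudouridylation (box H/ACA) of the rRNA. Endonucleases and the RNA exosome cut and trim the spacers, and the supply of these factors is known to follow the growth state of a cell.

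The study sequenced poly(A) RNA of visceral fat from 10 male mice aged 10 weeks that had been fed chow for 8 weeks, with 1 library per mouse. The WT group has 5 libraries (WT1 to WT5) and the aADM2-tg group, in which adrenomedullin 2, a secreted peptide hormone, is overexpressed in fat, has 5 (tg1 to tg5). The sources used here do not say which promoter drives the transgene. The labels name mature adipocytes as the cell type, while the libraries also hold RNA of other cells, among them endothelium, whose 3 markers summed to 645.3 to 1001 CPM. Where nothing more is said, a value is in CPM, counts per 1e+06 counted reads of a library, with the SD over 5 libraries, and a log2 change is aADM2-tg over WT from edgeR's quasi-likelihood test on all 10 libraries with genotype as the only term. A gene is called higher or lower at a Benjamini-Hochberg adjusted p under 0.05 over all 16591 tested genes. The log2 change also holds edgeR's TMM scaling between libraries, which the CPM do not. Where a change is small, CPM means and log2 change can therefore differ in direction, as for Rbfa and Ddx17 below.

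Libraries held 16030435 to 18214504 counted reads. Adm2 itself had 2 counts in 1 library and 0 in the other 9, which allows at most 0.1647 to 0.1871 CPM in a library at 0 (3 counts, counting error only), so the overexpression was not visible and every direction rests on the sample labels. The libraries also stood apart by RNA of duct and ciliated epithelium. A list of 20 marker genes of that epithelium, of which 19 were tested and 0 called, summed to 130.2 to 313.4 CPM in WT2 to WT5 and to 402.4 in tg2, with 0 of the markers at 0 counts there. The same list summed to 10.19 CPM in WT1 and to 8.234 to 14.84 in tg1, tg3, tg4 and tg5, with 4 to 7 markers at 0 counts in each. Male germ cell markers were high in 3 WT libraries, at 135.3 to 170.3 CPM. They summed to 1.716 in WT1, 8.635 in WT4, 9.023 in tg2 and at most 0.2979 in the other aADM2-tg libraries. Markers of dividing cells summed to 104.5 to 216.1 CPM in WT and to 59.51 to 87.85 in aADM2-tg, with 8 of 12 called lower, and 5 of 8 adipocyte markers were called higher. The 7 leukocyte markers summed to 213.9 to 256.6 CPM in WT and to 115.7 to 199.4 CPM in aADM2-tg, without overlap, with 3 called lower and 1 higher. The 5 markers of adipocyte progenitors summed to 350.4 to 405.1 CPM in WT and to 288.3 to 370.2 CPM in aADM2-tg, with 3 called lower and 1 higher. In whole tissue, fewer cells of a type and less RNA per cell cannot be told apart, and the part of these other cells in the results below was not tested except where a value is given.

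Among the protein-coding members, 88 passed the expression filter, and 40 of them were higher in aADM2-tg, 2 were lower and 46 were not called. That is 45.5% called higher, beside 13.8% of all tested genes called higher and 12.7% called lower. The rises were small. They ran from 1.17-fold to 1.82-fold (log2 0.23 to 0.86), the median over the 88 was log2 0.24, a 1.18-fold difference, and 74 of the 88 were above 0. Over all tested genes the median was log2 0.02, and 8608 of 16591 were above 0. The groups did not overlap for 21 members higher and 1 lower in aADM2-tg, beside 7.33% and 9.75% of all tested genes. For the SSU processome, the nucleases, the RNA polymerase I list, the members that are not protein-coding and the rows left out by symbol, the 0 calls lower given further on were also 0 at an unadjusted p under 0.05 and 0 by DESeq2 and by limma on FPKM. The other 4 coding members, Exosc6, Eif4a3l1, Gemin4 and 4930556J24Rik, had 0, 0, 50 and 6 counts over all libraries and were not tested. The filter did not favour one group, since 87 of the 88 tested reached its cutoff of 0.577 CPM in all 10 libraries. The count of 40 fell to 25 without WT2, 26 without WT3 and 25 without tg3, where the share of all tested genes called higher was 8.3%, 8.99% and 9.63%, and it was 12 with the duct score as a term, as described further on.

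**Figure D1:**
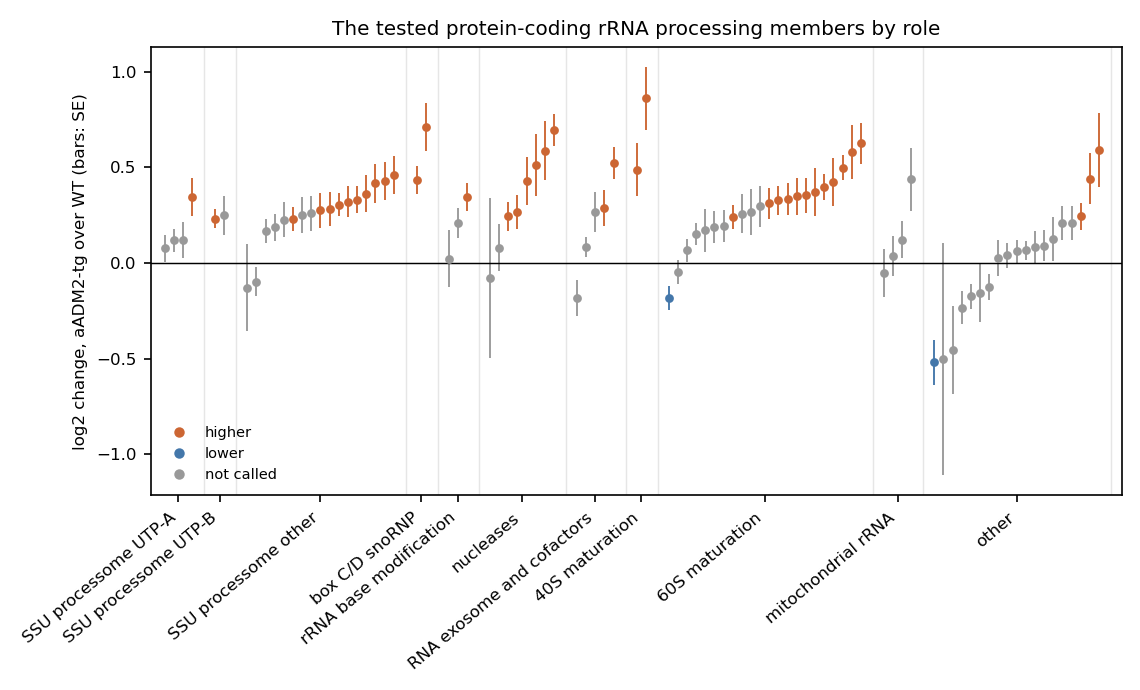
Log2 change in aADM2-tg over WT (vertical axis, bars are the SE of the quasi-likelihood fit) of the 88 tested protein-coding members, ordered by size within each role group. Orange points were called higher (40), blue ones lower (2), grey ones not called (46). Most points of the nucleolar groups lie above 0, and those of the mitochondrial group and of the members outside the role lists straddle it.

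By role, 6 of 8 nucleases and 0 of 4 mitochondrial factors were called higher among the members, groups too small to set apart, and the same roles outside the term did not show this order, as given further on. Over all tested genes, 13.8% were called higher and 12.7% lower. Of the 76 tested members annotated to the nucleolus, 39 were higher (51.3%) and 1 was lower, with a median log2 change of 0.26. Of the 12 tested members without that annotation, 1 was higher (8.33%), 1 was lower and the median was 0.07. This difference in calls between the sets is a description, with no test of its own. Expression per length differed widely: the mean over all 10 libraries ran from 0.28 FPKM (Palb2) to 81.5 FPKM (the helicase Ddx17), with a median of 5.91 FPKM, and the next highest levels were those of Sbds at 48.8, Rrp1 at 31.9 and Pa2g4 at 31.8 FPKM. Of these 4, Sbds was called higher and the others were not called.

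The SSU processome was represented by 23 tested members, of which 12 were higher and 0 lower, beside 13.8% and 12.7% of all tested genes. Higher were Rrp7a, Rrp36, Rcl1, Nol6, Utp11, Ddx47, Krr1 and the interacting trio Imp3, Imp4 and Mphosph10, which bind the U3 snoRNA, together with Wdr36 of the UTP-B subcomplex and Heatr1 of UTP-A. Krr1, a KH-domain factor needed for 18S rRNA in yeast, stood at 28.2, 30.3, 32.6, 34.0 and 31.3 CPM in WT1 to WT5 and at 38.0, 37.6, 36.7, 33.9 and 38.5 CPM in tg1 to tg5. All aADM2-tg libraries but tg4 lay above the highest WT library (log2 0.30 ± 0.0608 SE, adjusted p = 0.00623). Wdr36 rose less but more evenly, from 31.6 to 35.0 CPM in WT to 35.7 to 38.7 CPM in aADM2-tg, without overlap (log2 0.23 ± 0.0497 SE, adjusted p = 0.00837; 0.20 and adjusted p = 0.0703 with the duct score as a term). Imp3 went from a mean of 19.58 to 25.72 CPM (log2 0.46) and Nol6, a homologue of yeast Utp22, from 77.4 to 99.4 CPM (log2 0.42, adjusted p = 0.0141).

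Heatr1, the largest UTP-A protein and a link to RNA polymerase I transcription, was less secure. It stood at 15.8, 19.0, 21.2, 24 and 19.4 CPM in WT and at 24.9, 27.3, 22, 20.4 and 26.5 CPM in aADM2-tg, so that tg3 and tg4 lay within the WT range (log2 0.35 ± 0.101 SE, adjusted p = 0.0285). The call was lost, at adjusted p of 0.0541 to 0.0745, when any of WT1, WT2, WT5, tg1, tg3 or tg5 was left out. The other UTP-A members were not called, with log2 changes of 0.12 for Wdr75, 0.08 for Wdr43 and 0.12 for Utp15. Of the remaining processome members, Pdcd11 (0.26, adjusted p = 0.0552), Utp20 (0.17), Ddx10 (0.19), Ddx49 (0.25), Utp14a (0.23) and Utp18 (0.25) were above 0 and Esf1 (-0.10) and Utp14b (-0.13) below it, none of them called.

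Both box C/D members rose. Fbl encodes fibrillarin, the methyltransferase of the box C/D snoRNPs. Its level was 22.9, 23.9, 21.6, 22.6 and 24.5 CPM in WT1 to WT5 and 32, 27.9, 27.9, 30.3 and 31.4 CPM in tg1 to tg5. Every aADM2-tg library lay above every WT library, and the means were 23.1 ± 1.13 and 29.9 ± 1.9 CPM (log2 0.44 ± 0.0727 SE, adjusted p = 0.00309). Rrp9 is a protein particular to the U3 snoRNP, around which the SSU processome is built. Its level was 6.26, 7.99, 6.38, 7.68 and 7.19 CPM in WT and 9.84, 10.5, 12.7, 10.2 and 12.2 CPM in aADM2-tg, again without overlap (log2 0.71 ± 0.124 SE, adjusted p = 0.00357). Emg1, which methylates a pseudouridine of 18S rRNA, was higher in aADM2-tg, at 33.6 ± 1.78 CPM against 27.7 ± 1.78 CPM in WT (log2 0.35, adjusted p = 0.00853). With the duct score as a term its log2 change was 0.27 and its adjusted p 0.0619. Rrp8, at log2 0.21, and Lyar, at 0.02, were not called. Since the strand setting of the counting is not given, reads of overlapping genes could be shared between them. Overlaps were checked for the coding members and for the genes given with full values. Of those called higher, such sharing could touch Rrp9 (overlapping Parp3), Emg1 (Lpcat3), Rrp7a (Serhl), Heatr1 (Lgals8), Pop5 (Rnf10), Nop56 (Idh3b), Polr1e (Fbxo10), Cd3eap (Ercc1) and Taf1c (Dnaaf1), beside Bysl and Tlcd3a described further on. Other genes outside the term, given by their change only, were not checked, and of these Mrm3 overlaps Glod4. Nop56 had 6478 counts over all libraries against 27446 of Idh3b, Heatr1 3781 against 12483, Pop5 2428 against 37014 and Polr1e 1207 against 2068. Genes described as not called could be touched as well, among them Dkc1 (Mpp1), Bop1 (Mroh1), Wdr12 (Carf) and Dis3 (Pibf1).

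Nucleases gave 6 higher of 8 tested (75%) and 0 lower, beside 13.8% and 12.7% of all tested genes. Isg20, an interferon-induced exoribonuclease best known for its antiviral action, had the smallest adjusted p of all members. It stood at 8.25, 10.5, 9.99, 9.82 and 9.83 CPM in WT1 to WT5 and at 13.8, 15.5, 15.2, 15.7 and 14.8 CPM in tg1 to tg5. The lowest aADM2-tg library was well above the highest WT library, and the means were 9.68 ± 0.85 and 15 ± 0.743 CPM (log2 0.70 ± 0.0836 SE, a 1.62-fold rise, adjusted p = 0.00111). Also higher were 4 protein subunits of RNase P and RNase MRP, the latter an endonuclease that cuts the spacer before 5.8S rRNA: Pop4 (log2 0.27), Pop5 (0.43), Pop7 (0.51) and Rpp38 (0.59). These are low transcripts, with Pop7 at a mean of 4.225 and Rpp38 at 3.75 CPM in WT. The exonuclease Rexo4 rose by log2 0.24. Not called were Rpp30 at 0.08 and Rpp25 at -0.08.

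Of 5 tested members of the RNA exosome, which degrades and trims RNA from the 3′ end, 2 were higher (40%). Over all tested genes the share was 13.8%. Exosc1, a subunit of the cap of the exosome, stood at 11.9, 13.7, 12.6, 13.7 and 12.1 CPM in WT and at 16.9, 18.1, 17.6, 19.7 and 15.7 CPM in aADM2-tg, without overlap (log2 0.52 ± 0.0857 SE, adjusted p = 0.00285). Exosc5, of the ring, rose by log2 0.29 (adjusted p = 0.0442). The catalytic subunit Dis3 (-0.18, adjusted p = 0.168), the helicase Mtrex (0.08) and Exosc3 (0.27, adjusted p = 0.0808) were not called. Exosc10, a further catalytic subunit that the ontology term does not hold in these annotations, rose from 35.5 ± 1.25 to 42.6 ± 2.98 CPM (log2 0.32, adjusted p = 0.00421).

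Members that act in 40S maturation were 2, and both rose. Rrp12, known from yeast as a factor of pre-40S maturation and export, showed the largest change among all called members. It stood at 5.43, 7.65, 7.86, 9.2 and 5.28 CPM in WT1 to WT5 and at 11.9, 12.7, 13.5, 9.83 and 13.4 CPM in tg1 to tg5. WT4 and tg4 came close to each other, at 9.2 and 9.83 CPM, and the groups still did not overlap (log2 0.86 ± 0.163 SE, a 1.82-fold rise, adjusted p = 0.00483). Bysl, a pre-40S assembly factor, went from a mean of 10.85 to 14.53 CPM (log2 0.49, adjusted p = 0.0246), with reads that could be shared with the overlapping gene Ccnd3.

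Among the 22 tested members of 60S maturation, 12 were higher and 1 was lower, with a median log2 change of 0.30. That is 54.5% called higher, beside 13.8% of all tested genes. Ebna1bp2, a nucleolar partner in early 60S assembly, stood at 24.4, 24.2, 26.3, 28.3 and 27.0 CPM in WT and at 34.2, 35.5, 32.6, 34.8 and 39.2 CPM in aADM2-tg. The groups lay apart (log2 0.50 ± 0.0664 SE, adjusted p = 0.00129). Mrto4, which holds the place of a ribosomal stalk protein on the pre-60S particle, stood at 9.58, 9.51, 10.4, 11 and 10.6 CPM in WT and at 13.3, 13.8, 15.8, 15.2 and 17.4 CPM in aADM2-tg, also without overlap (log2 0.63 ± 0.106 SE, adjusted p = 0.00329). Wdr18, a subunit of the complex that acts on the spacer between 5.8S and 28S rRNA, had means of 22.2 ± 1.17 CPM in WT and 27.9 ± 1.14 CPM in aADM2-tg (log2 0.40, adjusted p = 0.00357). Ppan (log2 0.58), Wdr55 (0.42), Npm3 (0.37), Sbds (0.35), Brix1 (0.35), Ddx56 (0.33), Ddx27 (0.33) and Wdr74 (0.31) were called higher too. Sbds, whose loss causes Shwachman-Diamond syndrome in humans and which helps release an assembly factor from the 60S subunit, was the highest of these per length.

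Pes1, Bop1 and Wdr12 form a complex that matures 28S and 5.8S rRNA. Pes1 stood at 42.7, 44.4, 47.3, 46.5 and 46.2 CPM in WT and at 46.5, 55.8, 53.8, 50.2 and 50.5 CPM in aADM2-tg. Only tg1 lay within the WT range (log2 0.24 ± 0.0628 SE, adjusted p = 0.0189). The adjusted p was 0.0527 without WT2 and 0.0665 with the duct score as a term. Bop1 had a log2 change of 0.30 at adjusted p = 0.0643, which became 0.0343 without tg2 and 0.039 without tg4. Wdr12, outside the ontology term here, had 0.24 at adjusted p = 0.0567. The 3 partners thus had log2 changes of like size, with 1 of them past the threshold. Also not called in the 60S group were Rrp1 (0.15), Nop53 (0.07) and Mdn1, a very large ATPase that remodels pre-60S particles, at 0.27 with adjusted p = 0.121.

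Nol8, a nucleolar protein of the 60S group, was called lower. It stood at 29.8, 36.8, 37.8, 38.3 and 33.9 CPM in WT and at 28.6, 33.8, 28, 28.3 and 30.0 CPM in aADM2-tg, so that WT1 lay among the aADM2-tg libraries. Its log2 change of -0.18 had an adjusted p of 0.0491, which became 0.0669 to 0.118 when a single library other than WT1 or tg2 was left out. The change was 0.23 after the correction for length and GC content, where the median over all tested genes was 0.17.

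**Figure D2:**
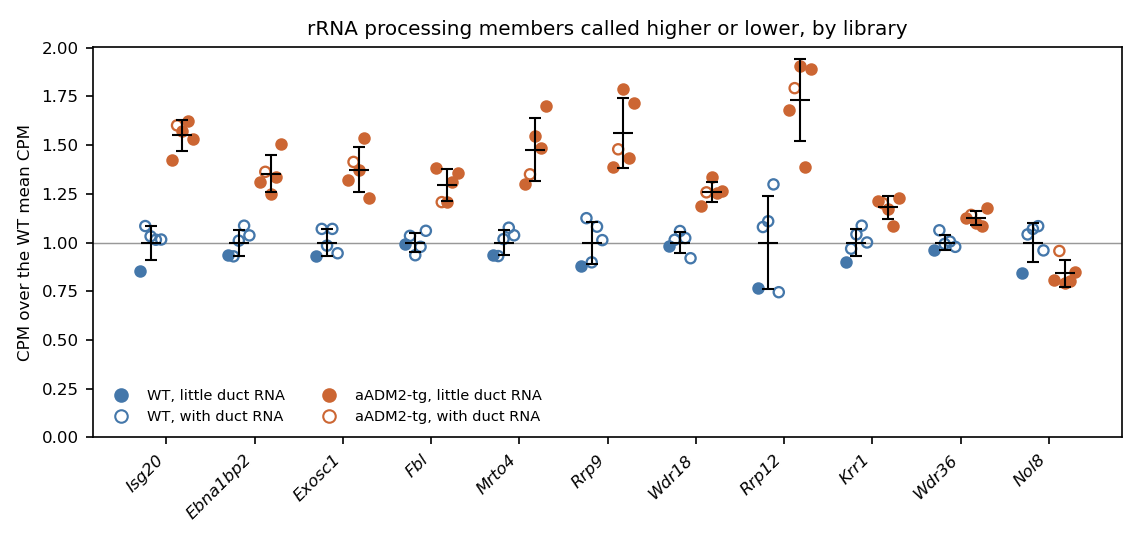
CPM of each library divided by the WT mean of the gene (vertical axis) for the 10 members called higher with the smallest adjusted p and Nol8, called lower. Blue circles are WT and orange circles aADM2-tg libraries, open circles are the 5 libraries with duct RNA, and black marks are the mean with its SD (n = 5). The orange points lie above all blue points for 9 of the 10 members called higher, Krr1 being the exception.

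Members of mitochondrial rRNA maturation were not called, with 0 of 4 past the threshold by edgeR, 0 at an unadjusted p under 0.05, 0 by limma on FPKM and 1, Mrm2, by DESeq2. Rbfa, a ribosome-binding factor of the mitochondrial small subunit, was at 12.3 ± 0.993 CPM in WT and 12.0 ± 1.47 CPM in aADM2-tg (log2 0.03 ± 0.105 SE, adjusted p = 0.826). Mterf4 had a log2 change of 0.12 and Ybey of -0.05, and Mrm2, a methyltransferase of mitochondrial 16S rRNA, had 0.44 with adjusted p = 0.0715. Outside the ontology term, 4 of 9 further mitochondrial factors were higher, Mrm3, Tfb1m, Rpusd4 and Tfb2m, and Mettl15 was lower. Their share called higher was 44.4%, beside 13.8% of all tested genes.

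The 19 tested members in no role group gave 3 higher and 1 lower, with a median log2 change of 0.06. Their share called higher, 15.8%, was near the 13.8% of all tested genes. Higher were Eif4a3, the helicase of the exon junction complex (log2 0.24), Pin4, a prolyl isomerase (0.44), and Tlcd3a, a membrane protein whose gene overlaps Glod4 (0.59 from a mean of 4.64 CPM). Members with a main role elsewhere were mostly without a call, among them the chromatin proteins Chd7 (0.08) and Suv39h1 (0.13) and the helicase Ddx17 (0.04), at 627.2 CPM in WT and 618.7 CPM in aADM2-tg. Ddx21, a nucleolar helicase, had 0.21 with adjusted p = 0.10. Over the 9 members with a Ddx symbol, 3 were higher, beside 13.8% of all tested genes. All 9 had a log2 change above 0, beside 8608 of all 16591 tested genes.

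Of the 318 members that are not protein-coding, 295 did not pass the filter and 23 were tested, with 2 higher and 0 lower (8.7% higher, beside 13.8% of all tested genes). Gm8292 and Gm11263 went from mean levels of 6.35 to 9.05 and from 2.95 to 4.16 CPM (adjusted p = 0.0139 and 0.0367). Both carry the ribosome structure annotation and may share reads with the parent genes, so their counts are uncertain. Among the 46 rows left out for their Rpl, Rps or Mrp symbol, 25 were tested, 13 were higher and 0 lower, with a median log2 change of 0.27. The share higher was 52%, beside the same 13.8% of all tested genes.

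Many known processing factors stood outside the ontology term in these annotations. A list of 139 such genes, chosen from their known roles, had 138 tested, of which 61 were higher and 3 lower, with a median log2 change of 0.26. That is 44.2% called higher, beside 13.8% of all tested genes called higher and 12.7% called lower. Of the box H/ACA proteins, 3 of 6 were higher, Nhp2 (log2 0.65), Gar1 (0.56) and Nop10 (0.53), whereas Dkc1, the pseudouridine synthase they accompany, was at 37.9 ± 1.94 and 38.4 ± 2.29 CPM (log2 0.08, adjusted p = 0.378). Reads of Dkc1, with 6581 counts, could be shared with the overlapping gene Mpp1, with 35360. Of the box C/D proteins, Nop56 stood at 29.3, 29.1, 32.5, 34.1 and 30.8 CPM in WT and at 41.8, 43.8, 39.7, 39.0 and 57.4 CPM in aADM2-tg (log2 0.57 ± 0.10 SE, adjusted p = 0.00373). Its partner Nop58 was not called (31.4 ± 3.67 and 34.9 ± 6.13 CPM, log2 0.22, adjusted p = 0.166). The acetyltransferase Nat10 rose by log2 0.55, the snoRNP chaperone Nolc1 by 0.63 and the nucleolar GTP-binding protein Gnl3 by 0.60. Nucleases on the list gave 5 higher and 2 lower of 15, with 7 above 0 and a median log2 change of -0.06. The 5 higher were Rpp21 (log2 0.63), Rpp40 (0.54), Pop1 (0.53), Rpp25l (0.41) and Rpp14 (0.33). All 5 carry Pop or Rpp symbols, as do the RNase P and RNase MRP subunits among the members. The 2 lower were the exonucleases Xrn1 (log2 -0.53) and Xrn2 (-0.28), and 8 were not called.

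The transcripts of the abundant nucleolar proteins Npm1 and Ncl were not called with genotype as the only term. Npm1, nucleophosmin, was at 173 ± 14.2 CPM in WT and 173 ± 8.96 CPM in aADM2-tg (log2 0.06 ± 0.0733 SE, adjusted p = 0.547). Ncl, nucleolin, was at 315 ± 23 and 296 ± 25.8 CPM (log2 -0.02 ± 0.0602 SE, adjusted p = 0.785), and its log2 change became 0.38 (adjusted p = 0.0164) after the correction for length and GC content. In that corrected fit the median over all tested genes was log2 0.17. Nob1, the endonuclease that makes the 3′ end of 18S rRNA, was at 13.6 ± 0.788 and 14.9 ± 1.81 CPM (log2 0.20, adjusted p = 0.155). A p that misses the threshold does not show that these levels were equal.

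RNA polymerase I, which makes the precursor that the members process, was followed through a list of 16 genes. Of these, 7 were higher and 0 lower, and all 16 had a log2 change above 0, with a median of 0.22. The share called higher was 43.8%, beside 13.8% of all tested genes, of which 8608 of 16591 were above 0. Polr1e, a subunit particular to this polymerase, stood at 5.15, 6.19, 5.97, 5.36 and 5.0 CPM in WT and at 9.42, 9.14, 8.23, 8.56 and 7.39 CPM in aADM2-tg. The groups lay well apart (log2 0.69 ± 0.114 SE, adjusted p = 0.00289). The subunits Polr1h (0.40), Polr1d (0.38) and Cd3eap (0.50), the promoter factor Taf1c (0.53), the initiation factor Rrn3 (0.28) and the upstream binding factor Ubtf (0.21) were called higher as well. The calls of Cd3eap, Taf1c, Rrn3 and Ubtf were each lost without any of several single libraries (adjusted p up to 0.0624, 0.0607, 0.0761 and 0.116), and with the duct score as a term only Polr1e of the 7 remained called. Myc and the 2 largest subunits, Polr1a and Polr1b, were not called.

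Seen by library, the members separated the groups. The median over the 88 coding members of the log2 deviation from each gene's mean was -0.17, -0.05, -0.06, -0.02 and -0.10 in WT1 to WT5 and 0.04, 0.10, 0.03, 0.07 and 0.19 in tg1 to tg5. The same median over all tested genes followed the duct RNA instead, at 0.03 to 0.09 in WT2 to WT5 and 0.06 in tg2 and at -0.12 to -0.02 in the other 5 libraries. Among libraries with little duct RNA, tg1, tg3, tg4 and tg5 all lay above WT1 for 59 of the 88 members (67%), beside 29.3% of all tested genes, and the median log2 difference was 0.25. Among libraries with duct RNA, tg2 lay above all of WT2 to WT5 for 54 of the 88 (61.4%), beside 31.6% of all tested genes, with a median of 0.16. These within-stratum values each rest on a single library of a group and have no test.

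**Figure D3:**
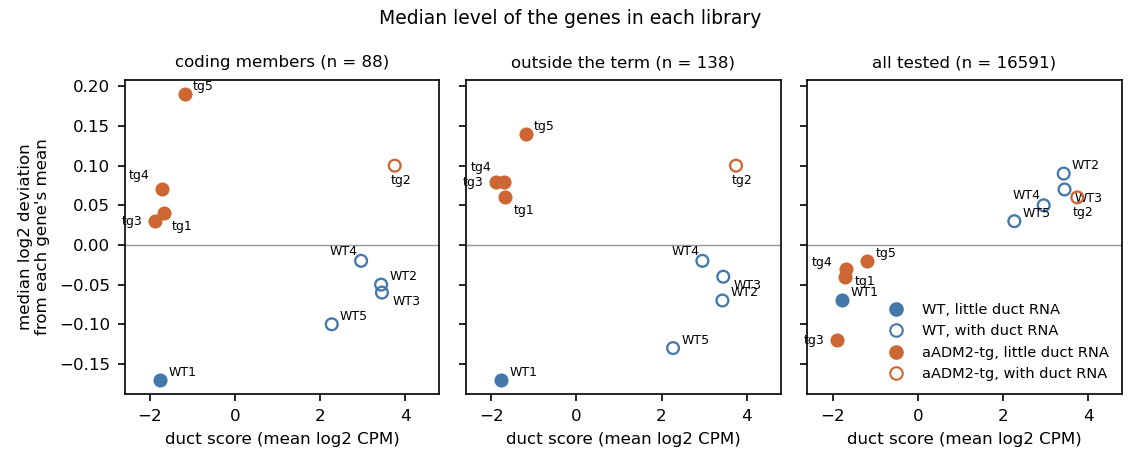
Median log2 deviation from each gene's mean over all 10 libraries (vertical axis) against the duct score, the mean log2 CPM of the duct markers (horizontal axis), for the coding members, the processing factors outside the term and all tested genes. Blue is WT, orange aADM2-tg, and open circles are libraries with duct RNA. In the first 2 panels all orange points lie above all blue ones at either end of the score, and in the third the points follow the score.

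With the duct score as a term beside genotype, 12 coding members were higher and 1 was lower, beside 5.28% and 8.16% of all tested genes. Of the 12, 11 were also called without the term: Isg20, Ebna1bp2, Exosc1, Fbl, Mrto4, Rrp9, Wdr18, Rrp12, Krr1, Rrp7a and Heatr1, and Mdn1 was called in addition (log2 0.39, adjusted p = 0.0454). The median log2 change of the members was 0.21 with the term and 0.24 without it. Without WT1 and tg2, the libraries that differ in duct RNA from the rest of their group, 40 members were higher and 5 lower, beside 19.2% and 21.7% of all tested genes, a larger share than in the fit to all 10 libraries. That fit sets WT2 to WT5, all with duct RNA, against tg1, tg3, tg4 and tg5, all with little. Genotype and duct RNA cannot be told apart in it. Without the 5 libraries with duct RNA, which leaves WT1 against 4 aADM2-tg libraries and assumes that WT1 varies like those, edgeR called 0 members higher and 0 lower and 1 of all tested genes higher. The median log2 change of the members in that fit was 0.22, beside 0.02 over all 17422 genes tested in it.

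Members called higher had shorter and more GC-rich transcripts than those not called. The median exonic length was 3607.5 bases in the 40 called higher and 4918.5 in the 46 not called, and the median GC content was 52.7% and 48.5%. Over all tested genes the medians were 4016 bases and 49.4%. After each library was corrected for its trend with length and GC content, 44 coding members were higher and 0 lower (1 lower at an unadjusted p under 0.05), beside 16.9% and 4.8% of all tested genes, and 30 of the 44 were among the original 40. The median over all tested genes then stood at log2 0.17 and that of the members at 0.36, a difference of 0.19. The 10 calls lost were Ddx56, Eif4a3, Pop7, Pop4, Imp3, Wdr55, Wdr74, Npm3, Pop5 and Pin4, and the 14 gained included Mdn1, Utp20, Pdcd11, Wdr75, Wdr43 and Utp18. With both the duct score and this correction 19 members were higher and 0 lower (again 1 lower at an unadjusted p under 0.05), beside 7.2% and 4.92% of all tested genes, and 14 of the 19 were among the original 40. Which of the processome and 60S factors were called depended on the treatment of length and GC content.

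**Figure D4:**
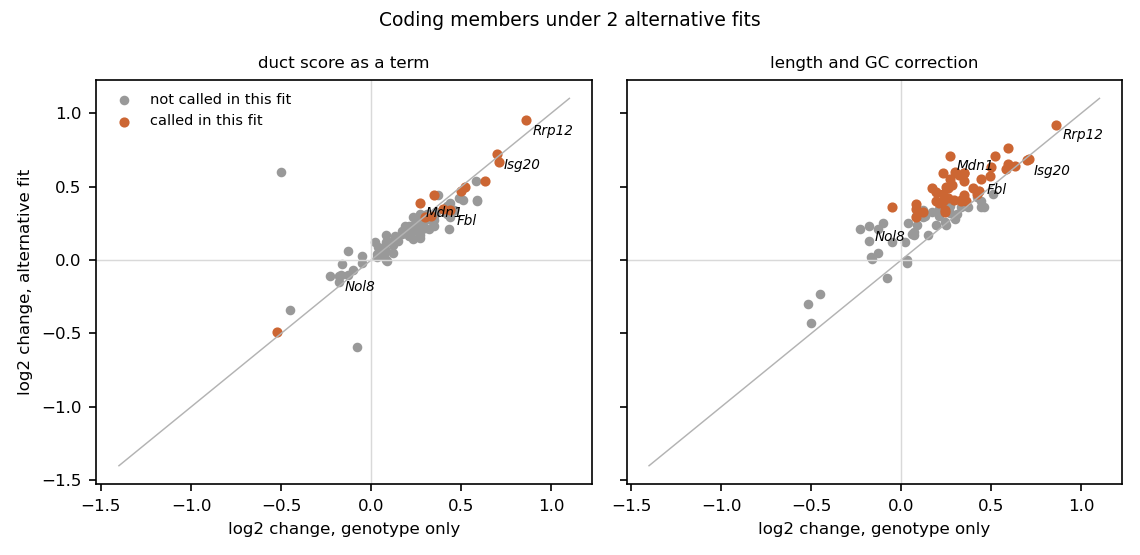
Log2 change of the 88 tested coding members with genotype only (horizontal axes) against that with the duct score as a term (left) and after the correction for length and GC content (right). Orange points were called in the alternative fit, and the grey diagonal marks equal values. On the left the points follow the diagonal with 12 called higher and 1 lower, and on the right they lie mostly above it with 44 called higher, including Mdn1.

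The 250 bases upstream of their transcription starts were searched in the RefSeq promoters of GRCm38.p6, which held 76 of the 92 coding members. The motif CGGAAG, the core of sites bound by ETS family factors such as GABPA, was present on either strand in 38 of these 76 (50%), beside 24% of the promoters of tested protein-coding genes and 13.8% of all 27025 promoters. It did not follow the calls: 13 of 33 members called higher held it (39.4%) and 22 of 39 not called (56.4%). CACGTG, the E-box that MYC and USF factors bind, was present in 6 of 76 (7.89%), beside 8.18% of the promoters of tested protein-coding genes. ATGGCG, the core of YY1 sites, was present in 7 of 76 (9.21%), beside 8.51%. A match is a description of letters and not a site. To show where these letters lie, the stretches of 4 members called higher that hold CGGAAG, and of Rrp7a with CACGTG, follow. They are examples drawn from part of the members called higher, so others with a motif may have a smaller adjusted p. Each runs 5′ to 3′ on the strand of the gene and ends at the base before the start. Matches to either motif are in capitals.
Rrp9: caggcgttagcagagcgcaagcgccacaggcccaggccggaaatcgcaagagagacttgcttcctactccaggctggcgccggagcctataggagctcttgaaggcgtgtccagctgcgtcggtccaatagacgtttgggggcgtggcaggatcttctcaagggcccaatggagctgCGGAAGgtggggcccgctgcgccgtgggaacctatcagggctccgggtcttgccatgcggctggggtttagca
Emg1: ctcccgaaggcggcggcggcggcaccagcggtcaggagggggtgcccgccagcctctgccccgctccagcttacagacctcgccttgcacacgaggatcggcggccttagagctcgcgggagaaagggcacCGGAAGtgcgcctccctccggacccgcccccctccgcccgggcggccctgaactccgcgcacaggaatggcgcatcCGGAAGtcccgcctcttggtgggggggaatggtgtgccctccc
Imp3: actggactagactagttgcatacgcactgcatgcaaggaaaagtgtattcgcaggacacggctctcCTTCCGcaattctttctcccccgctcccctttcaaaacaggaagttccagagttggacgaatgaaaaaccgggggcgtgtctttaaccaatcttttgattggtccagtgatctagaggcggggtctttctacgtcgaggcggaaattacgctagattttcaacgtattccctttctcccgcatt
Ddx27: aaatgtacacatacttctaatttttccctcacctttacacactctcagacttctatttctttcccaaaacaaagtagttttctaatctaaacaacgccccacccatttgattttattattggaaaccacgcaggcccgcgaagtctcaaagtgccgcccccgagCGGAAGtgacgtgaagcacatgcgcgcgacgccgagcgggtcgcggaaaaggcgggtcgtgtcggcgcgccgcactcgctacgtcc
Rrp7a: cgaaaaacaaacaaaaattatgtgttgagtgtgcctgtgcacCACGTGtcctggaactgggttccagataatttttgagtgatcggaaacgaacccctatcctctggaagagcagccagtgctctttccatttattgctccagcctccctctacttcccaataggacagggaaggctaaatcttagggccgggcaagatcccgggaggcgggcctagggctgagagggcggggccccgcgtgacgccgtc
In Rrp9 the match begins 73 bases before the start, in Ddx27 86 bases, and in Emg1 there are 2, at 119 and 43 bases. The match of Imp3 lies on the other strand, at 184 bases, and the E-box of Rrp7a begins 208 bases before the start. The places of these stretches are chr9:106477059-106477308 on the plus strand for Rrp9, chr6:124712179-124712428 on the minus strand for Emg1, chr9:56937250-56937499 on the plus strand for Imp3, chr2:167015063-167015312 on the plus strand for Ddx27 and chr15:83122802-83123051 on the minus strand for Rrp7a. Rrp9, Emg1, Imp3, Ddx27 and Rrp7a rose by log2 0.71, 0.35, 0.46, 0.33 and 0.33. The count table has gene coordinates of its own, of a build that no source states, and they were not joined to these stretches.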

How the data were processed

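The deposited table holds, per the file headers, raw read counts per gene of the 10 libraries, exonic lengths in bases and FPKM. HISAT2 2.2.1 and HTSeq 0.6.1 are named in the submitters' processing notes. No source used here states the genome build, the annotation release or the strand setting. The deposited FPKM, made by the authors from counts and exonic lengths, matched a recomputation within 0.01 for 56691 genes in 6 of 7 libraries and 56661 in WT3. FPKM in the text were computed from the counts, and 3 FPKM columns whose names fit more than 1 sample were not used. Groups follow the sample labels and the second header line, whereas the first header line has the 2 groups the other way round. The numbers of tg3, tg4 and tg5 come from the column names, since titles and descriptions disagree on them.

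Counts were tested in R 4.3.3 with edgeR 4.0.16 (filterByExpr, TMM, quasi-likelihood). The SE of a log2 change is its size divided by the square root of the test's F. Replicates are separate mice, 5 per group, and 0 pairs of libraries had identical counts. Depth sets a floor of 3 counts per library, for counting error only, and with no molecular identifiers a read need not be a separate molecule. Replicate numbers did not pair the libraries (correlations of deviations from the group means -0.375 to 0.671). Alternatives were DESeq2 size factors, DESeq2 1.42.0, limma 3.58.1 on log2 of FPKM plus 1, 2 other filters, each library left out, a replicate block, the duct score as a term, a loess correction (span 0.3) for exonic length and GC content (GC known for 98.5% of tested genes), both together, and leaving out WT1 and tg2 or the 5 libraries with duct RNA. The method was tested on simulated data. The members and gene lists were chosen with earlier results of these data known. Named with full values are the 10 members with the smallest adjusted p in each direction, the leading member of each role group, 12 genes set by name and the called RNA polymerase I genes. Other genes are given by their change, and 1 gene that the rule names is not reported here. Overlapping genes with at least 10% of a gene's counts stood beside 30 of 107 genes checked. Figures were drawn with matplotlib 3.10.9.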

Additional observations from a re-analysis of the deposited data

Results flagged for a closer look

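In 2 of 62 groups of 5 libraries checked among the named genes, 1 library lay far from the other 4, where chance alone would mark about 1 in 20 groups. Emg1 was at 30.8 CPM in WT4 and at 26.4 to 27.4 CPM in the others. Nop56 was at 57.4 CPM in tg5 and at 39 to 43.8 CPM in the other aADM2-tg libraries. Without the library concerned both genes kept their direction and their call.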

How the results depend on the processing

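Over all 410 members, 42 were called higher and 2 lower, beside 2285 and 2107 of all tested genes. With the duct score as a term the 4 counts were 12, 1, 876 and 1353. After the correction for length and GC content the members gave 45 higher and 0 lower, and 796 of all tested genes were lower. With both, the counts were 19, 0, 1194 and 817. Without the 5 libraries with duct RNA they were 0, 0, 1 and 34, and without WT1 and tg2 the members gave 5 lower and all tested genes 3622 lower. Members called lower numbered 1 with limma on FPKM, 1 with no filter and 4 at a mean of at least 10 CPM. With 1 library left out, members higher ranged from 26 to 50, members lower from 1 to 4, all tested genes higher from 1391 to 3250 and lower from 1558 to 3515. With the replicate block, 30 members were higher and 2 lower, beside 1853 and 2114 of all tested genes, and since the numbers do not pair the libraries this is a check only. DESeq2 called 45 members and 2707 of all tested genes higher, and the counts under DESeq2 size factors were 41 and 2. Among the genes given with full values and called in either fit, the direction turned for Nol8 (log2 0.23 after the length and GC correction and 0.17 with both) and Ncl (0.38 and 0.29). Other members also changed sign after the length and GC correction. Dis3, Esf1, Utp14b and Nvl, among others, went from log2 -0.18, -0.10, -0.13 and -0.05 to 0.13, 0.25, 0.21 and 0.36, and Rbfa went from 0.03 to -0.02. The median log2 change of the members was 0.15 with limma on FPKM, 0.36 after the length and GC correction, and 0.20 to 0.26 under the other alternatives. The cause of these shifts was not tested. Members with few counts, such as Gemin4, could not be tested. Gemin4 overlaps Glod4 and Exosc6 overlaps Aars, each on the same strand. Whether depth, a low level or such overlaps kept these counts low was not tested.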
